A study of Mus musculus with 12 samples.

Results

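Mouse embryonic stem (ES) cells are cultured from the inner cell mass of the early embryo and can give rise to every lineage of the body. RNA from 3 libraries of these cells at day 6 of a time course was compared with RNA from 3 libraries at day 0, which are 6 of the 12 libraries of a study that also sampled days 2 and 4. All expressed genes entered the comparison, 16468 of the 55335 genes in the count table. The title of the study names the nucleosome remodelling and deacetylase complex (NuRD) and the architectural protein CTCF. The labels give the same cells and the same growth conditions at both days. These were a medium with KnockOut Serum Replacement, with leukaemia inhibitory factor (LIF), a cytokine that supports self-renewal, and gelatin with irradiated MEFs (fibroblasts of the mouse embryo) as feeder cells. No genotype, strain or treatment is named, and no step that separates day 6 from day 0 is described. Day 6 is therefore described here by its time alone. Nothing in the labels says that the replicates came from separate cultures. The spread behind each p-value is that between these libraries and may be technical only.

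Total counts ran from 8.08 to 9.48 times 1e6 per library at day 0 and from 9.17 to 13.3 times 1e6 at day 6. Levels (CPM) are counts per 1e6 of the TMM-scaled library total, given per library in the order of replicates 1, 2 and 3 or as mean ± SD (n = 3 libraries). Some shares of the counts differed between the days. Cytosolic ribosomal protein genes took 8.38 to 8.45% of counts at day 0 and 6.16 to 6.32% at day 6, and mitochondrially encoded genes 1.58 to 1.63% and 1.98 to 2.02%. Gm42418, a gene model over ribosomal RNA sequence, took 1.41 to 1.44% and 2.64 to 2.92%. The labelled cell type was checked against 7 ES cell markers (Pou5f1, Nanog, Sox2, Zfp42, Tdgf1, Dppa5a and Utf1). Their summed level was 4891 to 4969 CPM at day 0 and 742 to 775 CPM at day 6, with none at 0 and all 7 lower at day 6.

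With p-values of edgeR's quasi-likelihood test adjusted by the Benjamini-Hochberg method, 12663 genes (76.9% of those tested) changed between day 0 and day 6. Of these, 6490 rose (39.4%) and 6173 fell (37.5%). A change of at least 2-fold was met by 3006 rising genes (18.3%) and 2272 falling genes (13.8%), and one of at least 16-fold by 461 and 162. Among the changed genes, 34.2% differed by less than 1.5-fold. The 3 libraries of day 6 lay wholly above those of day 0 in 6624 genes (40.2%) and wholly below in 6276 (38.1%). The fitted log2 fold change had a median of 0.02 over all tested genes, and its middle 90% ran from -2.09 to 2.89. A group of genes is described below by how many of its tested members rose or fell, to be read against these shares. Members with too few counts were not tested and are left out. A member without a count at day 0 or at day 6 is included, though its direction is largely set by the expression filter.

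**Figure D1:**
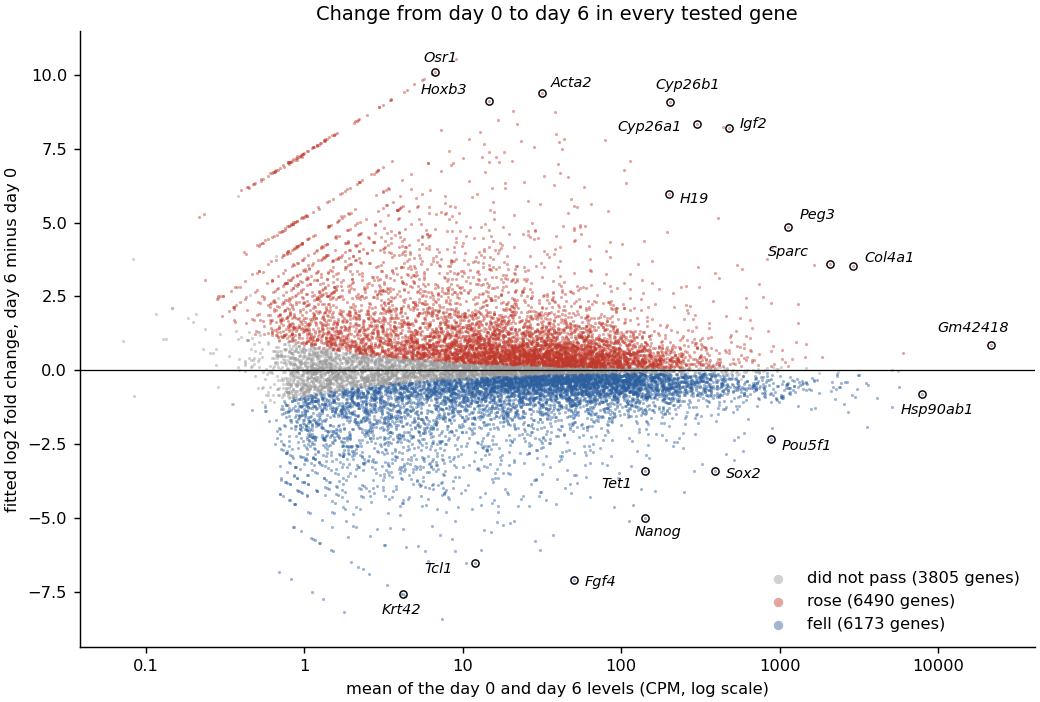
Each point is 1 of the 16468 tested genes, with its mean level over days 0 and 6 in CPM on the horizontal log axis and its fitted log2 fold change on the vertical axis; red genes rose, blue genes fell and grey genes did not pass an adjusted p of 0.05. The rising side reaches further from 0 than the falling side, and Igf2, Cyp26a1 and Cyp26b1 combine high levels with fold changes above 8 on the log2 scale.

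**Figure D2:**
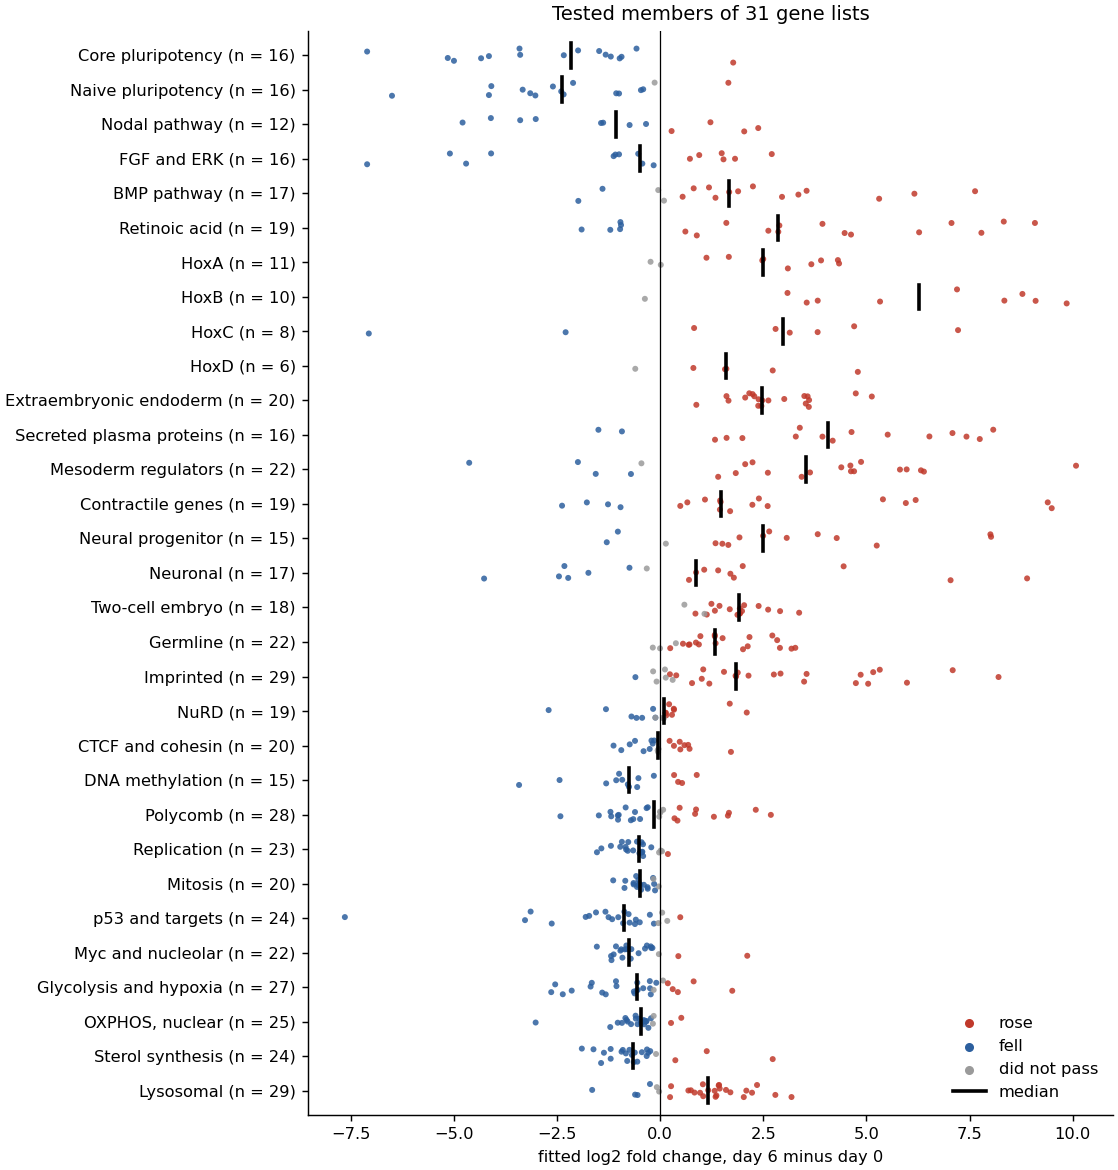
Each point is a tested member of a gene list, placed by its fitted log2 fold change between day 0 and day 6, with the list's median as a black bar and the number of tested members beside its name. The medians of the core and naive pluripotency lists lie at -2.16 and -2.37, that of the HoxB cluster at 6.26, and that of the NuRD subunits at 0.09.

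Pluripotency rests on a network of transcription factors around Pou5f1, Sox2 and Nanog, which sustain one another and hold lineage genes in check. A naive layer of further factors, among them Esrrb, Klf4 and Zfp42, is particular to the state before implantation and is lost first when cells leave it. Of 16 core pluripotency genes, 15 fell and 1 rose (list median -2.16 on the log2 scale). Pou5f1 (ENSMUSG00000024406, chr17:35506018-35510772), the Oct4 gene, stood at 1473, 1509 and 1422 CPM at day 0 and 296, 275 and 302 CPM at day 6. It fell 5.04-fold (log2 -2.33 ± 0.05, edgeR quasi-likelihood adjusted p = 4.22e-34). Nanog (ENSMUSG00000012396, chr6:122707489-122714633) stood at 279, 273 and 275 CPM at day 0 and 8.305, 10.2 and 7.57 CPM at day 6. It fell 31.9-fold (log2 -4.996 ± 0.07, edgeR quasi-likelihood adjusted p = 4.93e-39). Sox2 went from 716 ± 11.2 to 67.7 ± 2.91 CPM, a fall of 10.6-fold (log2 -3.41 ± 0.05, edgeR quasi-likelihood adjusted p = 6.58e-39). Fgf4, which encodes the growth factor that ES cells secrete, showed 103, 101 and 95.2 CPM at day 0 and 0.599, 0.756 and 0.841 CPM at day 6, a fall of 137-fold (log2 -7.10 ± 0.14, edgeR quasi-likelihood adjusted p = 6.68e-34). In all 4 genes the libraries of the days were far apart and did not overlap. Among the other members, Sall4 had a log2 fold change of -0.57. Lin28a, an RNA-binding protein that blocks maturation of let-7 microRNAs, was the member that rose, from 36.7 ± 2.33 to 125 ± 2.38 CPM, or 3.41-fold (log2 1.77 ± 0.06, edgeR quasi-likelihood adjusted p = 5.21e-27).

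Of 16 naive factors, 14 fell, 1 rose and 1 did not pass (list median -2.37 on the log2 scale). Esrrb, an orphan nuclear receptor, stood at 305, 301 and 314 CPM at day 0 and 18.1, 19.9 and 15.97 CPM at day 6, a fall of 17.03-fold (log2 -4.09 ± 0.06, edgeR quasi-likelihood adjusted p = 2.02e-37). Zfp42, the Rex1 gene, fell 8.13-fold, from 914 ± 19.3 to 113 ± 5.72 CPM. Klf4 fell 5.06-fold, from 322 ± 6.23 to 63.6 ± 4.16 CPM. Tcl1, a cofactor of the kinase Akt, fell 90.3-fold, from 23.5 ± 1.85 to 0.221 ± 0.198 CPM. The exceptions were the homeobox gene Gbx2, which rose 3.15-fold, and Dppa3, at 16.2 ± 0.361 CPM at day 0 and 14.7 ± 0.573 CPM at day 6 (edgeR quasi-likelihood adjusted p = 0.228). Formative and primed genes, which mark the epiblast around implantation, went both ways: 5 of 15 rose, 9 fell and 1 did not pass (list median -0.78 on the log2 scale). Otx2 fell 41.8-fold and Nodal 27.6-fold, while the cadherin gene Cdh2 rose 12.4-fold and Sox11 5.97-fold. Fgf5, a defining gene of the primed state, stood at 0.1297 ± 0.131 CPM at day 0 and 0.876 ± 0.258 CPM at day 6 and was the lowest member of the list at day 0.

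ES cells are poised between LIF, which sustains them, and FGF, which prepares them to differentiate, and Nodal, BMP and Wnt signals guide the lineages. Among 16 genes of FGF and ERK signalling, 10 fell and 6 rose. Etv4 and Etv5, transcription factors induced by ERK, fell 34.2-fold and 17.1-fold, and the feedback inhibitor Spry4 fell 26.02-fold, from 22.1 ± 1.0002 to 0.811 ± 0.214 CPM. The receptors divided: Fgfr1 fell 1.44-fold, whereas Fgfr2 rose 1.65-fold, Fgfr3 3.52-fold and Fgfr4 1.93-fold. In the Nodal pathway, 8 of 12 genes fell and 4 rose. The ligand Nodal went from 32.1 ± 0.976 to 1.18 ± 0.178 CPM, its co-receptor Tdgf1 from 528 ± 22.4 to 50.4 ± 2.18 CPM and the inhibitor Lefty2 from 14.6 ± 0.851 to 0.812 ± 0.265 CPM, while the intracellular mediator Smad3 rose 2.33-fold. Of 14 genes of LIF and STAT3 signalling, 8 fell, 4 rose and 2 did not pass. Among feedback and target genes, Socs3 fell from 129 ± 2.67 to 25.5 ± 0.777 CPM and Icam1 from 106 ± 3.43 to 22.1 ± 0.606 CPM, while Junb rose 1.17-fold. The receptor subunits Lifr and Il6st rose 1.55-fold and 2.18-fold, and Stat3 itself was at 117 ± 3.31 and 125 ± 7.08 CPM (edgeR quasi-likelihood adjusted p = 0.0806).

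BMP genes moved mainly upward, with 13 of 17 rising, 2 falling and 2 not passing (list median 1.67 on the log2 scale). The Id genes are targets of BMP signalling and encode proteins that block differentiation factors of the helix-loop-helix class. Id3 stood at 0.452, 0.263 and 0.506 CPM at day 0 and 32.5, 29.2 and 28.5 CPM at day 6, a rise of 71.6-fold (log2 6.16 ± 0.22, edgeR quasi-likelihood adjusted p = 1.87e-25). Id2 rose 39.6-fold, from 2.23 ± 0.866 to 89.6 ± 3.83 CPM, and Id1 rose 4.75-fold, from 29.7 ± 4.75 to 140.1 ± 21.3 CPM. All libraries of day 6 lay above all libraries of day 0 for these genes. Among ligands, Bmp2 rose 7.75-fold and Bmp5 lacked any count at day 0 and reached 2.397 CPM at day 6, at least 19.97-fold higher, whereas Bmp4 fell 3.95-fold. A bound of this kind sets the day without counts at a floor of 3 counts summed over its libraries and covers counting error only. Wnt targets and inhibitors were divided evenly, with 7 of 16 rising, 7 falling and 2 not passing. At least 2-fold, 6 rose and 6 fell, and the genes named next are not among those that fell. The ligand Wnt5a rose 58.8-fold, from 0.372 ± 0.139 to 22.5 ± 2.82 CPM, and the receptor Fzd4 17.3-fold, from 4.14 ± 0.516 to 71.8 ± 2.12 CPM. The target Axin2 was at 7.602 ± 0.6504 and 8.46 ± 1.04 CPM (edgeR quasi-likelihood adjusted p = 0.388).

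Retinoic acid is made from retinol by dehydrogenases, binds the receptors RAR and RXR, and is removed by enzymes of the Cyp26 family, whose genes it switches on. Of 19 genes of its metabolism and reception, 14 rose and 5 fell (list median 2.86 on the log2 scale). The number that fell was 3 without replicate 1 of day 6 and with counts thinned to the smallest library. Cyp26a1 (ENSMUSG00000024987, chr19:37697798-37701536), which degrades retinoic acid, stood at 2.49, 1.31 and 1.65 CPM at day 0 and 608, 602 and 579 CPM at day 6. It rose 321-fold (log2 8.33 ± 0.09, edgeR quasi-likelihood adjusted p = 1.47e-42). Its paralog Cyp26b1 (ENSMUSG00000063415, chr6:84571414-84593908) stood at 0.565, 1.18 and 0.506 CPM at day 0 and 400.4, 425 and 396 CPM at day 6, a rise of 542-fold (log2 9.08 ± 0.11, edgeR quasi-likelihood adjusted p = 2.77e-41). The uptake receptor gene Stra6 rose 77.5-fold, from 0.933 ± 0.247 to 74.1 ± 1.56 CPM, and Dhrs3, which returns retinal to retinol, 24.7-fold, from 4.38 ± 0.647 to 108 ± 2.09 CPM. The synthesis genes Aldh1a1 and Aldh1a2 rose 133-fold and 22.2-fold, whereas Aldh1a3 fell 2.31-fold, at 1.31 and 0.586 CPM. Rarb (ENSMUSG00000017491, chr14:16430839-16819156), a receptor gene that is also a target, stood at 1.13, 0.263 and 0.633 CPM at day 0 and 155, 159.97 and 155 CPM at day 6. It rose 220.5-fold (log2 7.78 ± 0.12, edgeR quasi-likelihood adjusted p = 1.16e-37). The other RAR genes fell, Rara from 37.1 ± 2.46 to 19.14 ± 1.07 CPM and Rarg from 96.1 ± 5.89 to 25.5 ± 1.92 CPM. Per kilobase of exon, Rarg was the highest of the 3 receptor genes at day 0 (22.6 CPM per kb, against 8.50 for Rara and 0.128 for Rarb), and Rarb was the highest at day 6 (29.7, against 5.98 for Rarg and 4.38 for Rara).

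The promoters of Cyp26a1 and Rarb are shown because both genes rose strongly and both held a retinoic acid receptor direct repeat. Promoters were read from RefSeq (GRCm38.p6) and searched on both strands for this repeat, that is AGTTCA or GGTTCA, then any 5 bases, then AGTTCA. These motifs were chosen after the values were seen. The 250 bases before each start are shown with the match in capitals (Cyp26a1 chr19:37697558-37697807, + strand; Rarb chr14:16575477-16575726, - strand).
Cyp26a1: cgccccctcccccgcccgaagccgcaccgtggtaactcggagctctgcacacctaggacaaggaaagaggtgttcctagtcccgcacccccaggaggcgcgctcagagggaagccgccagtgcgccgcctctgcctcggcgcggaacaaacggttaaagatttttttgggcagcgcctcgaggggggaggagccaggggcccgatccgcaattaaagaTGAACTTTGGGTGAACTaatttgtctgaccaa
Rarb: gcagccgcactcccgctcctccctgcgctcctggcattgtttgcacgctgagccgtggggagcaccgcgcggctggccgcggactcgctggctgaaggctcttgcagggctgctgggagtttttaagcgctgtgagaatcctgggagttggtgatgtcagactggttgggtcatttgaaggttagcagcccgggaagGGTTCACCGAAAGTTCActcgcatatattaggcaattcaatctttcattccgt
The match lies 32 to 16 bases before the start in Cyp26a1, on the opposite strand, and 53 to 37 bases before it in Rarb, on the strand of the gene. Cyp26a1 held the spelling that begins with AGTTCA and Rarb the one that begins with GGTTCA. Other spellings of the repeat were not searched, so the share that follows holds for these narrow spellings only. Of 32851 promoters in the table, 9 (0.0274%) held such a match in the same window. Among tested genes the only other one was Blvrb, a biliverdin reductase gene, which fell by 0.17 on the log2 scale. Cyp26b1, Stra6 and Aldh1a1, which also rose strongly, lack either a match or an entry in the promoter table. A match is a description of letters, and binding was not measured here. The promoter table covers 69.3% of the tested genes, so no share over a group of genes was computed.

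Hox genes encode homeodomain factors that pattern the body axis. They lie in 4 clusters, HoxA, HoxB (chr11:96194316-96368256), HoxC (chr15:102921103-103036852) and HoxD (chr2:74668310-74765142), and are numbered by paralog group from the end expressed first and furthest toward the head. Of 35 tested Hox genes, 29 rose, 2 fell and 4 did not pass. All 27 tested genes of paralog groups 1 to 9 rose (list median 3.82 on the log2 scale), from 0.81 for Hoxd1 to 9.85 for Hoxb5. Of the 8 tested genes of groups 10 to 13, 2 rose, 2 fell and 4 did not pass. Their summed level was 21.2 CPM at day 0 and 18.8 CPM at day 6, against 43.4 and 523 CPM for groups 1 to 9. Hoxb8 stood at 0.113, 0.131 and 0 CPM at day 0 and 40.8, 38.1 and 45.6 CPM at day 6. With 2 counts at day 0, its ratio of CPM was 505 with a 95% counting interval of 139.5 to 4174. Hoxb5 lacked any count at day 0 and reached 11.4 ± 1.32 CPM at day 6, at least 93.01-fold higher. Hoxb9 stood at 2.71, 2.76 and 1.39 CPM at day 0 and 28.2, 25.4 and 27.3 CPM at day 6, a rise of 11.7-fold (log2 3.55 ± 0.14, edgeR quasi-likelihood adjusted p = 1.49e-23). No library of day 0 reached the lowest of day 6 in these genes.

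Within HoxB, 9 of 10 tested genes rose, with a median log2 of 6.26, or 5.93 with Hoxb5 at its bound, and 1 fell without replicate 2 of day 0. The medians were 2.50 in HoxA (9 of 11 rose), 2.97 in HoxC (6 of 8) and 1.59 in HoxD (5 of 6). The 2 falling genes were Hoxc13, from 4.8004 ± 1.19 to 0.974 ± 0.0766 CPM, and Hoxc12, with 40 counts at day 0 and none at day 6, at least 17.6-fold lower. Hoxb13, the last gene of its cluster, was at 4.57 ± 0.894 and 3.58 ± 0.367 CPM (edgeR quasi-likelihood adjusted p = 0.0817). Hoxb5os, an antisense RNA in HoxB, was at least 57.4-fold higher, but strandedness of the counting is not stated, and reads from overlapping Hox genes cannot be told apart from its own. Of 9 homeobox cofactors of the TALE class, which bind DNA together with Hox proteins, 7 rose and 2 fell (list median 2.08 on the log2 scale). Meis1 rose 30.4-fold, from 3.49 ± 0.525 to 106 ± 2.69 CPM, and Meis2 9.56-fold, from 21.5 ± 1.98 to 205 ± 7.92 CPM.

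**Figure D3:**
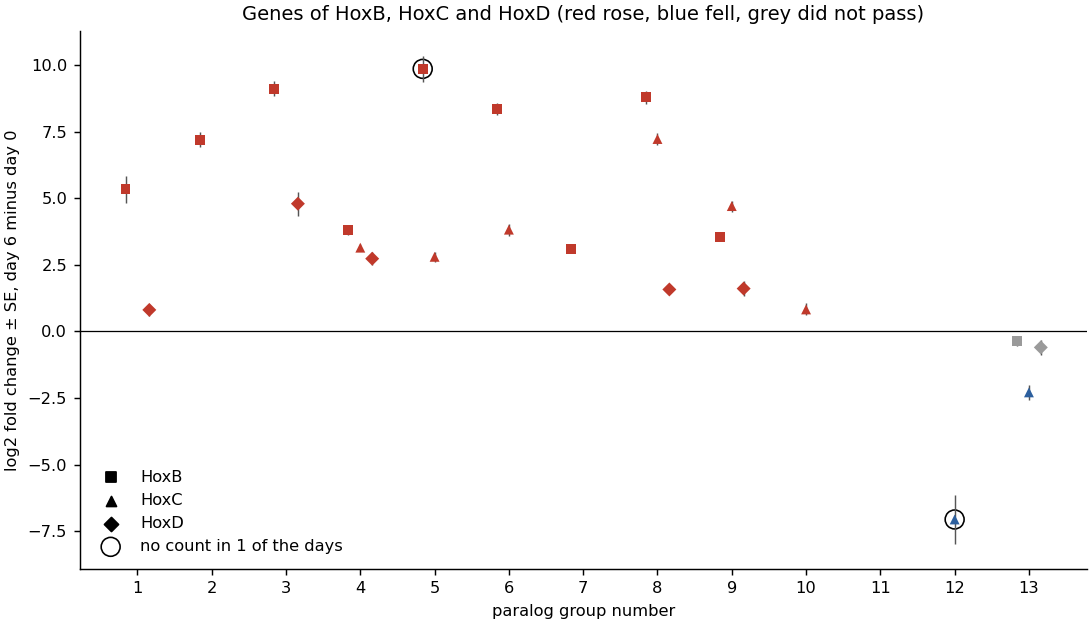
Fitted log2 fold change ± SE from day 0 to day 6 for the tested genes of HoxB, HoxC and HoxD, by paralog group number on the horizontal axis and by cluster as the marker shape. All plotted genes of groups 1 to 9 rose and none of groups 12 and 13 did; circled genes had no count in 1 of the days, so their fitted value depends on the prior count.

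Extraembryonic endoderm is the lineage that lines the yolk sac and secretes basement membrane and plasma proteins. All 20 of its listed genes rose, by a median log2 of 2.46. Its regulator Gata6 (ENSMUSG00000005836, chr18:11052064-11085635) stood at 16.2, 18.2 and 18.98 CPM at day 0 and 83.8, 75.4 and 78.1 CPM at day 6, a rise of 4.47-fold (log2 2.16 ± 0.07, edgeR quasi-likelihood adjusted p = 4.52e-26). Sox17 stood at 10.3, 9.98 and 10.6 CPM at day 0 and 50.1, 52.3 and 48.2 CPM at day 6, a rise of 4.87-fold (log2 2.28 ± 0.08, edgeR quasi-likelihood adjusted p = 6.92e-25). Gata4 rose 5.23-fold, from 6.81 ± 0.928 to 35.3 ± 1.43 CPM, and Foxa2 rose by 5.13 on the log2 scale, from 0.874 ± 0.2896 to 30.6 ± 0.512 CPM. The endocytic receptor Cubn rose 12.2-fold, from 19.3 ± 0.162 to 235 ± 0.188 CPM. Basement membrane genes belonged to the same list. Col4a1 (ENSMUSG00000031502, chr8:11198423-11312826), of type IV collagen, stood at 481, 458 and 455 CPM at day 0 and 5247, 5645 and 5204 CPM at day 6, a rise of 11.5-fold (log2 3.53 ± 0.05, edgeR quasi-likelihood adjusted p = 4.64e-39). Col4a2 rose 11.9-fold, from 257 ± 2.39 to 3058 ± 118 CPM, and Sparc, a collagen-binding matrix protein, 12.2-fold, from 313 ± 3.07 to 3822 ± 49.1 CPM. Every day 6 library exceeded every day 0 library in these genes. The summed level of 7 extraembryonic endoderm markers was 129 to 137 CPM at day 0 and 723 to 739 CPM at day 6, and all 7 rose. In RNA from whole cultures, more cells of a type and more RNA per cell cannot be told apart, here and in the other groups.

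Of 16 genes of apolipoproteins and other secreted plasma proteins, 14 rose and 2 fell (list median 4.06 on the log2 scale). Apoa1 stood at 0.678, 1.05 and 1.27 CPM at day 0 and 92.4, 83.5 and 99.4 CPM at day 6, a rise of 92.1-fold (log2 6.52 ± 0.14, edgeR quasi-likelihood adjusted p = 1.54e-32). Ttr, a carrier of thyroid hormone and retinol, rose 215-fold, from 0.211 ± 0.158 to 46.5 ± 2.7998 CPM, the fibrinogen gene Fgb 136-fold, from 0.274 ± 0.252 to 40.7 ± 2.44 CPM, and Mttp, which loads lipid onto apolipoprotein B, 9.76-fold, from 9.398 ± 0.0871 to 91.9 ± 0.716 CPM. The falling members were Apoe, which is high in ES cells here, from 952 ± 17.5 to 501 ± 11.02 CPM, and the transferrin gene Trf, from 32.6 ± 1.93 to 11.7 ± 0.793 CPM. In the list of definitive endoderm and gut, 9 of 11 genes rose, 1 fell and 1 did not pass. Without replicate 1 of day 0, and without each replicate of day 6, the number that fell was 2. Krt19 rose 7.82-fold, from 17.6 ± 1.61 to 137 ± 8.49 CPM, and Foxa1 6.27-fold, from 2.41 ± 0.382 to 15.3 ± 0.848 CPM. The gut gene Cdx2 was at 0.1703 ± 0.193 and 2.67 ± 0.523 CPM, a small number of counts behind a rise of 15.1-fold.

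Mesoderm gives rise to muscle, connective tissue, heart and blood. Of 22 tested regulators of this layer, 17 rose, 4 fell and 1 did not pass (list median 3.53 on the log2 scale). Among those that fell, brachyury, T, stood at 3.16, 3.41 and 3.54 CPM at day 0 and 0.1496, 0 and 0.2102 CPM at day 6, a fall of 24.7-fold (log2 -4.63 ± 0.45, edgeR quasi-likelihood adjusted p = 6.47e-12), and Eomes fell 1.63-fold. Among those that rose, Foxf1, of the lateral mesoderm, stood at 0.226, 0.525 and 0 CPM at day 0 and 23.8, 20.1 and 20.7 CPM at day 6, a rise of 83.96-fold (log2 6.39 ± 0.26, edgeR quasi-likelihood adjusted p = 1.72e-23). Tbx2 rose 79.9-fold, from 0.463 ± 0.218 to 36.7 ± 4.36 CPM, Meox1 25.98-fold, from 2.11 ± 0.351 to 54.9 ± 3.56 CPM, and Twist1 10.8-fold, from 3.63 ± 0.498 to 39.2 ± 2.64 CPM. Osr1, of the intermediate mesoderm, lacked any count at day 0 and reached 13.3 ± 1.07 CPM at day 6, at least 109-fold higher. Osr1 is among the 17, with a direction largely set by the expression filter. Mesp1, Tbx6, Mixl1 and Meox2 had too few counts to be tested.

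Contractile genes of smooth and striated muscle also moved, with 15 of 19 rising and 4 falling (list median 1.47 on the log2 scale). Tagln, a marker of smooth muscle, stood at 3.96, 3.68 and 3.797 CPM at day 0 and 159, 165 and 160.2 CPM at day 6, a rise of 42.2-fold (log2 5.399 ± 0.095, edgeR quasi-likelihood adjusted p = 1.40e-35). Myl9, a myosin light chain, stood at 1.24, 1.31 and 2.15 CPM at day 0 and 120.5, 112 and 112 CPM at day 6, a rise of 73.1-fold (log2 6.19 ± 0.11, edgeR quasi-likelihood adjusted p = 6.60e-35). Acta2, the smooth muscle actin gene, went from 0.0799 ± 0.0695 to 63.2 ± 5.47 CPM. With 2 counts at day 0, its ratio of CPM was 778 with a 95% counting interval of 215 to 6425. Tpm1 rose 4.71-fold, from 459 ± 11.6 to 2163 ± 58.1 CPM. The cardiac actin gene Actc1 lacked any count at day 0 and reached 8.84 ± 0.691 CPM at day 6, at least 72.5-fold higher. Myosin genes of the heart were lower, Myh6 from 5.03 ± 1.07 to 1.4996 ± 0.264 CPM and Myh7 from 1.51 ± 0.222 to 0.729 ± 0.3404 CPM.

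Serum response factor binds the CArG box in promoters of contractile genes, and its gene Srf rose 1.96-fold, from 54.5 ± 2.88 to 107 ± 1.07 CPM. The promoters of Actc1 and Myl9 are shown because both genes rose strongly and both held a CArG box in the 250 bases before the start, searched on both strands after the values were seen (RefSeq, GRCm38.p6; Actc1 chr2:114052876-114053125, - strand; Myl9 chr2:156775214-156775463, + strand). Capitals mark the match.
Actc1: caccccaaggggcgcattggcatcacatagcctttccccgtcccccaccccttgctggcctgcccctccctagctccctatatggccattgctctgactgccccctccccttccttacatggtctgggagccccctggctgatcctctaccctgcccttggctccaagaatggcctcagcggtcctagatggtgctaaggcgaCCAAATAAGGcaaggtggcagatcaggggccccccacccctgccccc
Myl9: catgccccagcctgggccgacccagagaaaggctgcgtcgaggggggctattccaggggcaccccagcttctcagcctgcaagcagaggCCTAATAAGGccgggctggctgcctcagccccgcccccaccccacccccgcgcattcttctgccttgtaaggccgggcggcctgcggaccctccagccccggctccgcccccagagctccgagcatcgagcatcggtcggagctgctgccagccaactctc
The match lies 47 to 38 bases before the start in Actc1 and 161 to 152 bases before it in Myl9. In the table, 482 of 32851 promoters (1.47%) held the motif in this window. Of the 164 tested genes that held it, 91 rose and 48 fell. Over all tested genes 39.4% rose and 37.5% fell, and the shares among genes with a promoter in the table were not computed. The 91 include members of the Rhox2 family, which are close copies.

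Collagens are the main fibres of connective tissue. Of 21 collagen genes, 16 rose, 4 fell and 1 did not pass (list median 1.74 on the log2 scale). Col3a1 stood at 0.452, 0.788 and 0.633 CPM at day 0 and 82.4, 83.5 and 72.6 CPM at day 6, a rise of 127-fold (log2 6.99 ± 0.15, edgeR quasi-likelihood adjusted p = 1.06e-32). Col1a1 rose 6.28-fold, from 5.89 ± 1.17 to 36.8 ± 2.26 CPM, and Col1a2 26.2-fold, from 1.88 ± 0.208 to 49.8 ± 1.61 CPM. Col6a1, Col6a2, Col13a1 and Col18a1 fell, with log2 fold changes of -0.25 to -2.30. Fibroblasts, which the labels name as feeder cells, also express such genes. The summed level of 7 fibroblast markers (Col1a1, Col1a2, Col3a1, Thy1, Postn, Dcn and Lum) was 18.99 to 21.4 CPM at day 0 and 164 to 181 CPM at day 6. Of these markers, 5 rose, Thy1 fell from 11.6 ± 0.515 to 0.555 ± 0.0387 CPM, Dcn had too few counts to be tested, and Lum was at 0 at day 0. The part of feeder RNA in the collagen, mesoderm and contractile results was not tested. Fn1, the fibronectin gene, fell 3.83-fold, from 1417 ± 11.99 to 369.5 ± 11.3 CPM. In the list of integrins and laminins, 15 of 24 genes rose, 6 fell and 3 did not pass. Lama1 rose 5.48-fold, from 190.2 ± 7.07 to 1042 ± 11.997 CPM, and Itgb1 2.15-fold, from 205 ± 9.34 to 440.2 ± 16.5 CPM, while Itga6, the laminin receptor subunit of ES cells, fell 3.34-fold, from 223 ± 2.73 to 66.8 ± 3.28 CPM.

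Neural genes gave a mixed picture. Of 15 neural progenitor markers, 12 rose, 2 fell and 1 did not pass (list median 2.50 on the log2 scale). Pax6 stood at 0.791, 2.63 and 2.02 CPM at day 0 and 22.4, 26.9 and 26.6 CPM at day 6, a rise of 14.1-fold (log2 3.82 ± 0.18, edgeR quasi-likelihood adjusted p = 1.07e-20). The intermediate filament gene Nes rose 3.14-fold, from 20.04 ± 2.15 to 63.5 ± 4.23 CPM, whereas Sox1, which marks the neural plate, fell 2.45-fold, from 12.7 ± 0.5801 to 5.18 ± 0.105 CPM. Of 17 neuronal markers, 10 rose, 6 fell and 1 did not pass. Tubulin, stathmin and RNA-binding protein genes of neurons were among those that fell: Tubb3 went from 45.9 ± 1.98 to 13.7 ± 0.521 CPM, Stmn2 from 121 ± 2.03 to 6.28 ± 0.583 CPM and Elavl3 from 25.7 ± 1.19 to 5.38 ± 1.21 CPM. Dcx, of migrating neurons, lacked any count at day 0 and reached 5.88 ± 0.189 CPM at day 6, at least 47.8-fold higher. The summed level of the 5 neuronal markers Tubb3, Dcx, Stmn2, Elavl3 and Map2 was 196 to 198 CPM at day 0 and 40.0 to 43.1 CPM at day 6. Of 21 genes of axon guidance, which also steer other cells, 16 rose and 5 fell, with Nrp1 from 0.862 ± 0.249 to 26.9 ± 2.47 CPM and Plxna2 from 2.18 ± 0.198 to 39.8 ± 3.08 CPM among the risers. In the neural crest and glia list, 3 of 8 genes rose, 3 fell and 2 did not pass.

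Epithelial and trophectoderm lists were divided by gene. Of 20 keratins and junction genes, 12 rose, 5 fell and 3 did not pass. The simple keratins Krt8 and Krt18 rose 7.71-fold and 13.04-fold, Krt18 standing at 20.6, 22.3 and 23.7 CPM at day 0 and 291, 295 and 280.1 CPM at day 6. Krt42, a type I keratin, fell from 201 counts at day 0 to 1 at day 6, a ratio of CPM of 0.00377 with a 95% counting interval of 9.5e-05 to 0.0213. Grhl3, an epithelial factor, fell 47.2-fold, from 72.6 ± 2.93 to 1.58 ± 0.439 CPM. E-cadherin, Cdh1, fell 2.03-fold, from 469.9 ± 9.45 to 231 ± 8.403 CPM, and N-cadherin, Cdh2, rose 12.4-fold, from 2.02 ± 0.307 to 25.001 ± 2.19 CPM. Per kilobase of exon Cdh1 remained above Cdh2 at day 6, at 50.5 against 3.10 CPM per kb. Of the 13 cadherin and epithelial-mesenchymal transition genes, 11 rose and 2 fell (list median 2.86 on the log2 scale), with the repressor Zeb2 from 0.981 ± 0.178 to 22.5 ± 1.85 CPM. In the trophectoderm list 8 of 12 rose, 3 fell and 1 did not pass. Gata3 rose 18.6-fold, from 0.977 ± 0.174 to 18.7 ± 3.89 CPM, and Tfap2c fell 12.997-fold, from 53.8 ± 4.56 to 4.15 ± 0.537 CPM. Elf5 had too few counts to be tested. Of 13 blood and endothelial genes, 7 rose and 6 fell. Kdr rose 7.57-fold, from 2.84 ± 0.765 to 21.5 ± 0.466 CPM, and Pecam1, which ES cells also express, fell 4.48-fold, from 241 ± 6.35 to 53.8 ± 1.09 CPM.

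Genes of the two-cell embryo, which a small fraction of ES cells switches on at a time, rose in 16 of 18 cases, and 2 did not pass (list median 1.90 on the log2 scale). Zscan4d stood at 4.86, 4.99 and 5.44 CPM at day 0 and 26.6, 26.9 and 26.5 CPM at day 6, a rise of 5.23-fold (log2 2.39 ± 0.11, edgeR quasi-likelihood adjusted p = 6.74e-22). Its mean was 79.1 ± 5.03 CPM at day 2 and 106 ± 1.37 CPM at day 4. Members of the Zscan4 and Usp17l families are near-identical copies, so the division of reads among them is uncertain. Of 22 germline genes, 19 rose and 3 did not pass (list median 1.32 on the log2 scale). Rhox5, a homeobox gene of the X chromosome, stood at 76.6, 74.96 and 77.8 CPM at day 0 and 527, 576 and 536 CPM at day 6, a rise of 7.14-fold (log2 2.84 ± 0.05, edgeR quasi-likelihood adjusted p = 3.61e-35). Dazl, an RNA-binding protein of germ cells, rose 4.35-fold, from 39.1 ± 1.46 to 169.6 ± 7.57 CPM. Of 17 meiosis genes, 10 rose, 4 fell and 3 did not pass. Stra8, a retinoic acid target that admits germ cells to meiosis, stood at 184, 177 and 172 CPM at day 0 and 532, 570.2 and 516 CPM at day 6, a rise of 3.04-fold (log2 1.604 ± 0.05, edgeR quasi-likelihood adjusted p = 1.38e-27). Days 2 and 4 had 2992 ± 47.9 and 1766 ± 68.9 CPM of Stra8. Rec8, the meiotic cohesin subunit, rose 4.41-fold, from 9.96 ± 1.49 to 44.1 ± 1.92 CPM, and Sycp2, of the chromosome axis, 13.6-fold, from 2.11 ± 0.391 to 29.1 ± 1.89 CPM. The meiotic recombinase gene Dmc1 fell by 0.22 on the log2 scale.

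Imprinted genes are expressed from 1 parental allele, and many act on fetal growth. Of 29 tested, 23 rose, 1 fell and 5 did not pass (list median 1.84 on the log2 scale). Igf2 (ENSMUSG00000048583, chr7:142650766-142666816), a fetal growth factor, stood at 3.39, 2.89 and 3.42 CPM at day 0 and 922, 1002 and 947 CPM at day 6. It rose 294-fold (log2 8.20 ± 0.08, edgeR quasi-likelihood adjusted p = 4.09e-44). The gene model Gm49394 overlaps Igf2 (chr7:142650769-142669942) and rose 298-fold, and reads of the 2 models may be shared. H19, the noncoding neighbour of Igf2, stood at 5.31, 5.91 and 7.59 CPM at day 0 and 391, 384 and 409 CPM at day 6, a rise of 63.2-fold (log2 5.98 ± 0.07, edgeR quasi-likelihood adjusted p = 1.23e-40). Peg3 (ENSMUSG00000002265, chr7:6703892-6730431), a zinc finger gene, stood at 75.3, 74.04 and 77.6 CPM at day 0 and 2201, 2165 and 2219 CPM at day 6, a rise of 29.02-fold (log2 4.86 ± 0.06, edgeR quasi-likelihood adjusted p = 1.06e-41). Dlk1, which inhibits Notch signalling, rose 136-fold, from 1.64 ± 0.217 to 225 ± 13.3 CPM, and its maternally expressed neighbours Meg3 and Rian 11.7-fold and 7.55-fold. Cdkn1c, an inhibitor of cyclin-dependent kinases, rose 26.8-fold, from 2.03 ± 0.333 to 55.5 ± 3.49 CPM. All libraries of day 6 exceeded those of day 0 in these genes. Zdbf2 fell, from 57.996 ± 1.62 to 38.1 ± 2.06 CPM. Kcnq1ot1, Snrpn, Magel2, Nap1l5 and Ddc did not pass. Of 16 genes of the IGF axis, 11 rose, 2 fell and 3 did not pass. Igfbp5 rose 103-fold, from 0.761 ± 0.368 to 81.3 ± 4.46 CPM, while Igfbp2, another IGF-binding protein, fell 7.03-fold, from 803 ± 20.1 to 114 ± 3.05 CPM. Counts do not tell the parental alleles apart.

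**Figure D4:**
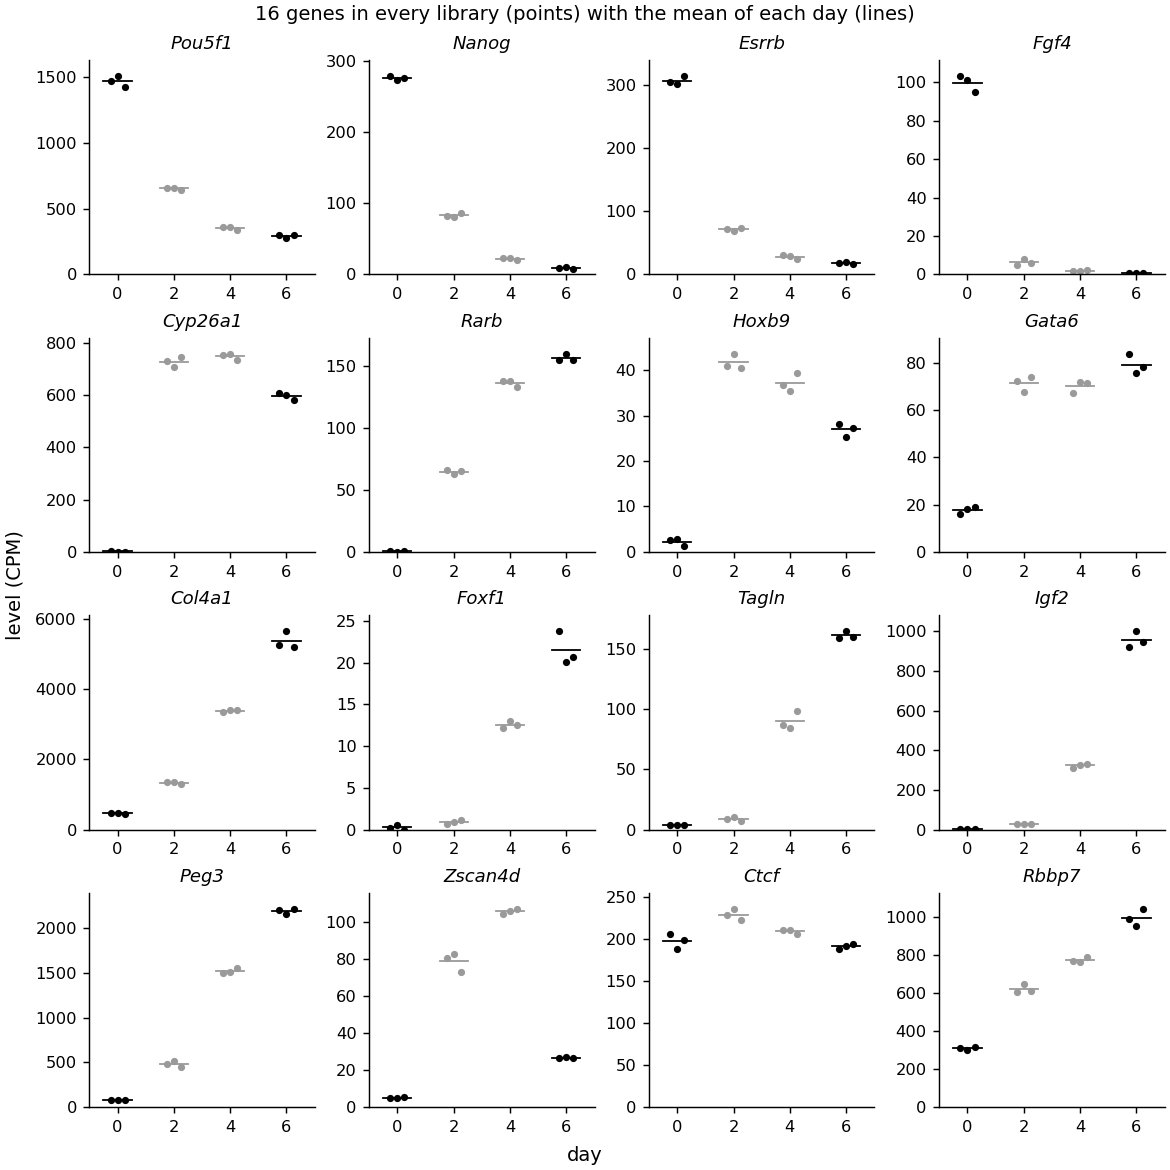
Level in CPM (vertical axis, each panel from 0) of 16 genes in every library against day; each point is a library, each line the mean of a day, with days 0 and 6 in black. Pou5f1, Nanog, Esrrb and Fgf4 are lowest at day 6, Col4a1, Tagln, Igf2 and Peg3 are highest there, and the Ctcf libraries of days 0 and 6 overlap.

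The NuRD complex joins a chromatin remodeller of the CHD class with deacetylases, methyl-CpG-binding proteins and histone-binding subunits. Of 19 listed subunits and partners, 9 rose, 7 fell and 3 did not pass, with a median log2 of 0.09, and 4 of them changed at least 2-fold. The remodeller Chd4 stood at 843, 831 and 859 CPM at day 0 and 912, 957 and 919.5 CPM at day 6, a rise of 1.101-fold (log2 0.14 ± 0.04, edgeR quasi-likelihood adjusted p = 0.00584). Mbd3, the subunit that sets NuRD apart from its Mbd2 form, stood at 158, 144 and 158 CPM at day 0 and 176, 184 and 176 CPM at day 6, a rise of 1.16-fold (log2 0.22 ± 0.05, edgeR quasi-likelihood adjusted p = 0.000104). Mbd2 rose 4.28-fold, from 22.8 ± 0.681 to 97.2 ± 4.301 CPM. Per kilobase, Mbd3 was above Mbd2 at both days, at 77.1 against 7.08 CPM per kb at day 0 and 89.8 against 30.2 at day 6. The histone-binding subunit Rbbp7 stood at 311, 298 and 317 CPM at day 0 and 986, 952 and 1041 CPM at day 6, a rise of 3.22-fold (log2 1.69 ± 0.05, edgeR quasi-likelihood adjusted p = 2.33e-29), and its paralog Rbbp4 fell 1.62-fold, from 273 ± 12.5 to 169 ± 7.73 CPM. The deacetylase Hdac1 stood at 187, 199 and 176 CPM at day 0 and 75.4, 79.7 and 70.8 CPM at day 6, a fall of 2.48-fold (log2 -1.31 ± 0.05, edgeR quasi-likelihood adjusted p = 7.47e-24), and Hdac2 went from 379.9 ± 14.7 to 464 ± 8.86 CPM, a rise of 1.22-fold. Chd5, a remodeller of neurons and testis, fell 6.504-fold, from 50.5 ± 0.941 to 7.84 ± 0.664 CPM. The log2 fold changes of the 5 MTA and GATAD2 subunits ran from -0.44 for Gatad2a to 0.34 for Mta2.

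CTCF stops loop extrusion by cohesin, the ring complex of Smc1a, Smc3, Rad21 and a Stag subunit. Of 20 genes of CTCF, cohesin and related factors, 8 rose, 9 fell and 3 did not pass (list median -0.05 on the log2 scale). Ctcf (ENSMUSG00000005698, chr8:105636568-105682922) was at 198 ± 8.88 CPM at day 0 and 191 ± 3.27 CPM at day 6, a log2 difference of -0.05 ± 0.04 (edgeR quasi-likelihood adjusted p = 0.326), and its libraries overlapped between the days. Rad21 stood at 973, 974 and 957 CPM at day 0 and 640.1, 629 and 635 CPM at day 6, a fall of 1.53-fold (log2 -0.61 ± 0.04, edgeR quasi-likelihood adjusted p = 1.42e-16). Smc3 fell 1.67-fold and Smc1a 1.19-fold, Stag2 rose 1.64-fold, and Stag1 did not pass. Ctcfl, the germline paralog of CTCF, rose 3.28-fold, from 3.58 ± 0.693 to 11.98 ± 0.847 CPM. The loader Nipbl fell by 0.21 on the log2 scale and the releaser Wapl fell by 0.401. Zfp143, which binds promoters near CTCF sites, fell 2.19-fold, from 114 ± 6.66 to 52.1 ± 1.04 CPM.

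Further lists of chromatin regulators were counted in the same way. Of 15 genes of DNA methylation and demethylation, 11 fell and 4 rose (list median -0.75 on the log2 scale). Tet1, a 5-methylcytosine dioxygenase, stood at 257, 255 and 259 CPM at day 0 and 22.7, 26.1 and 23.6 CPM at day 6, a fall of 10.7-fold (log2 -3.42 ± 0.06, edgeR quasi-likelihood adjusted p = 5.30e-35). Its paralog Tet2 fell 2.09-fold, from 169 ± 4.77 to 80.7 ± 1.45 CPM, and Tet3 rose 1.35-fold, from 21.4 ± 0.6005 to 28.7 ± 2.19 CPM. Dnmt3b fell 2.47-fold, from 111 ± 5.25 to 45.1 ± 1.52 CPM, and Zfp57, which guards imprints, 5.41-fold, from 361 ± 6.56 to 66.7 ± 1.88 CPM. Of 28 Polycomb genes, 14 fell, 10 rose and 4 did not pass. In the repressive complex PRC2, Suz12 fell from 332 ± 9.51 to 164 ± 2.95 CPM, Jarid2 from 604 ± 11.1 to 216 ± 2.49 CPM and Ezh2 from 155 ± 5.81 to 123 ± 0.483 CPM, and Ezh1, the paralog of Ezh2, did not pass. In PRC1, Cbx7 fell 1.57-fold while Cbx8 rose 6.42-fold and Cbx2 1.39-fold. Per kilobase Cbx7 was still the highest of these 3 at day 6, at 12.9 CPM per kb against 5.75 for Cbx2. Of 24 subunits of the BAF remodeller, 14 rose, 8 fell and 2 did not pass. The ATPase Smarca2 rose 4.97-fold, from 28.1 ± 0.866 to 139.6 ± 4.298 CPM, and its paralog Smarca4 fell 1.55-fold, from 487 ± 8.85 to 314 ± 1.98 CPM. In the heterochromatin list 12 of 21 genes fell, 6 rose and 3 did not pass, with Mphosph8, of the HUSH complex, from 146 ± 3.09 to 79.2 ± 3.94 CPM and Zfp809, a silencer of retroviruses, from 36.7 ± 1.27 to 92.1 ± 6.23 CPM.

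Most replication and mitosis genes were lower at day 6. Of 23 replication genes, 19 fell, 1 rose and 3 did not pass (list median -0.50 on the log2 scale), and 0 rose without replicate 3 of day 0. Of 20 mitosis genes, 18 fell and 2 did not pass (list median -0.49 on the log2 scale). Rrm2, a subunit of ribonucleotide reductase, fell 2.89-fold, from 473 ± 12.3 to 163 ± 4.91 CPM, the helicase subunit Mcm2 1.78-fold, from 466 ± 15.4 to 261 ± 5.54 CPM, and the proliferation marker Mki67 1.47-fold, from 649.9 ± 23.5 to 441 ± 20.8 CPM. The D-type cyclins parted: Ccnd2 stood at 3.39, 4.73 and 2.28 CPM at day 0 and 96.97, 96.9 and 96.7 CPM at day 6, a rise of 27.99-fold (log2 4.81 ± 0.14, edgeR quasi-likelihood adjusted p = 8.58e-19), while Ccnd1 fell 4.54-fold and Ccnd3 2.66-fold. Of 18 G1 cyclins, kinases and inhibitors, 8 rose, 4 fell and 6 did not pass. Among p53 and its targets, 20 of 24 fell, 1 rose and 3 did not pass (list median -0.88 on the log2 scale), and 0 rose without replicate 3 of day 0 or of day 6 and 2 without replicate 2 of day 6. Trp53 stood at 95.6, 107 and 102 CPM at day 0 and 32.2, 31.3 and 28.5 CPM at day 6, a fall of 3.29-fold (log2 -1.72 ± 0.06, edgeR quasi-likelihood adjusted p = 4.79e-25). The inhibitor Cdkn1a fell 2.94-fold, from 109 ± 2.85 to 37.1 ± 0.215 CPM, and the death gene Pmaip1 6.18-fold, from 126 ± 4.26 to 20.3 ± 0.952 CPM. Trp73, of the p53 family, had 1 count at day 6 against 211 at day 0. Of 22 genes of the Myc family and its nucleolar targets, 19 fell, 2 rose and 1 did not pass, with nucleolin, Ncl, from 5427 ± 126 to 2824 ± 117 CPM. The antagonist Mxd4 rose 4.32-fold, from 7.01 ± 0.323 to 30.3 ± 2.38 CPM.

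More genes fell than rose in the lists of glycolysis, nuclear oxidative phosphorylation, sterol synthesis and fatty acid synthesis. Of 27 glycolysis and hypoxia genes, 20 fell, 5 rose and 2 did not pass (list median -0.55 on the log2 scale). Pkm, pyruvate kinase, stood at 3972, 3828 and 3979 CPM at day 0 and 1503, 1481 and 1468 CPM at day 6, a fall of 2.65-fold (log2 -1.404 ± 0.04, edgeR quasi-likelihood adjusted p = 8.22e-28). Hk1 fell 4.42-fold, from 269 ± 3.27 to 60.7 ± 2.93 CPM, and Ldhb 5.83-fold, from 363 ± 15.7 to 62.5 ± 1.805 CPM. Gapdh, often used as a reference gene, stood at 749, 825 and 812 CPM at day 0 and 386, 366 and 384 CPM at day 6, a fall of 2.099-fold (log2 -1.07 ± 0.05, edgeR quasi-likelihood adjusted p = 8.49e-23). P4ha1, which hydroxylates collagen and was listed for its hypoxia response, rose 3.36-fold, from 114 ± 0.493 to 382 ± 10.4 CPM. Of 25 nuclear genes of oxidative phosphorylation, 21 fell, 2 rose and 2 did not pass (list median -0.46 on the log2 scale). The muscle form Cox7a1 fell 8.09-fold, from 37.4 ± 4.31 to 4.599 ± 0.154 CPM. Of 13 mitochondrially encoded genes, 4 rose, 3 fell and 6 did not pass. In sterol synthesis, 20 of 24 fell, 3 rose and 1 did not pass (list median -0.66 on the log2 scale). The farnesyl diphosphate synthase gene Fdps fell 2.696-fold, from 48.4 ± 1.29 to 17.9 ± 0.6905 CPM, while Insig1, which restrains the pathway, rose 2.19-fold, from 57.8 ± 2.55 to 126 ± 2.67 CPM. Of 15 fatty acid genes, 9 fell, 5 rose and 1 did not pass, with the elongase Elovl6 from 157 ± 1.42 to 43.2 ± 3.45 CPM. The number of these genes that rose was 3 without replicate 1 or replicate 3 of day 0, with upper-quartile factors, by DESeq2 and at an adjusted p under 0.01.

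Lysosomal genes rose in 23 of 29 cases, with 4 falling and 2 not passing (list median 1.16 on the log2 scale). The cathepsin gene Ctsc stood at 9.27, 7.48 and 7.59 CPM at day 0 and 74.6, 72.6 and 75.5 CPM at day 6, a rise of 9.08-fold (log2 3.18 ± 0.09, edgeR quasi-likelihood adjusted p = 3.78e-29). Lamp2, a membrane protein of lysosomes, rose 6.92-fold, from 23.9 ± 2.69 to 165 ± 5.196 CPM, and the protease Lgmn 5.09-fold, from 124 ± 8.81 to 630.5 ± 4.87 CPM. Tfeb, a transcription factor of lysosomal genes, fell 3.13-fold, from 22.96 ± 0.692 to 7.35 ± 0.385 CPM. Of 17 genes of the integrated stress response, 14 fell, 2 rose and 1 did not pass (list median -0.73 on the log2 scale). Asns, asparagine synthetase, fell 4.23-fold, from 134 ± 1.702 to 31.4 ± 3.15 CPM, and the amino acid transporter Slc7a5 4.87-fold, from 185 ± 3.18 to 37.8 ± 2.01 CPM. Of 18 amino acid transporters, 9 fell, 7 rose and 2 did not pass. Of 18 genes of folding in the endoplasmic reticulum, 9 rose, 6 fell and 3 did not pass. P4hb, a subunit of the collagen hydroxylase, rose 2.203-fold, from 302 ± 12.8 to 665 ± 8.99 CPM. Of 16 heat shock chaperones, 11 fell, 4 rose and 1 did not pass. Hsp90aa1 stood at 5673, 5472 and 5802 CPM at day 0 and 1456, 1542 and 1514 CPM at day 6, a fall of 3.76-fold (log2 -1.91 ± 0.04, edgeR quasi-likelihood adjusted p = 1.43e-31). Of 27 proteasome subunits, 18 fell, 6 rose and 3 did not pass. In the interferon list 13 of 18 rose, 3 fell and 2 did not pass. B2m, of the class I antigen complex, rose 3.53-fold, from 20.4 ± 2.75 to 71.8 ± 4.39 CPM.

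Families of lineage factors gave further counts. Of 24 forkhead genes, 14 rose, 7 fell and 3 did not pass, with Foxq1 from 6.33 ± 0.776 to 57.2 ± 0.646 CPM and Foxp4 from 32.1 ± 2.096 to 110.2 ± 7.05 CPM. Of 15 Sox genes, 9 rose, 4 fell and 2 did not pass. Sox15, expressed in ES cells, fell 18.7-fold, from 14.1 ± 1.01 to 0.737 ± 0.0977 CPM, and Sox7 rose 11.3-fold, from 2.76 ± 0.146 to 31.02 ± 1.801 CPM. Of 7 GATA factors and their cofactors, 6 rose, and Gata1, of red blood cells, fell, from 1.41 ± 0.261 to 0.3398 ± 0.2195 CPM. Of 14 genes of Lin28 and its let-7 pathway, 7 rose, 5 fell and 2 did not pass. Hmga2 rose 4.07-fold, from 52.9 ± 2.52 to 216 ± 19.3 CPM, and its paralog Hmga1 fell 4.76-fold, from 904 ± 41.4 to 190.3 ± 20.2 CPM. Of 22 long noncoding RNAs, 16 rose, 4 fell and 2 did not pass. Malat1 rose 1.92-fold, from 863 ± 22.2 to 1659.5 ± 63.03 CPM, and Pvt1 fell 7.56-fold, from 15.7 ± 2.05 to 2.03 ± 0.676 CPM.

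Some tested genes had no count at 1 of the days. Such a gene passes the expression filter only through counts of other days, so its direction is largely set by the filter. Of the tested genes, 95 had none in any library of day 0, and 93 of them rose. Among the 95, 78 are protein-coding and 14 reached at least 5 CPM at day 6. Svep1 (ENSMUSG00000028369, chr4:58042442-58206859), a matrix adhesion protein, had the highest bound among them, with 18.2 ± 0.499 CPM at day 6, at least 148-fold higher. The chemokine gene Cxcl10 was at least 82.9-fold higher, the matrix protein gene Tnc 69.2-fold, the gut homeobox gene Isx 56.6-fold and the mesenchymal cadherin gene Cdh11 50.8-fold. Conversely, 5 tested genes had no count at day 6: Wnt6, Hoxc12, Faim2, Platr26 and A730036I17Rik, with 2.62, 1.64, 1.39, 3.57 and 2.22 CPM at day 0. They were chosen after their values were seen. Cd80, a costimulatory ligand, fell from 357 counts to 1, a ratio of CPM of 0.00212 with a 95% counting interval of 5.36e-05 to 0.0119. Anxa8, an annexin gene, stood at 64.6, 59.2 and 56.6 CPM at day 0 and 0.524, 0.972 and 1.26 CPM at day 6, a fall of 68.1-fold (log2 -6.09 ± 0.15, edgeR quasi-likelihood adjusted p = 9.38e-31). Inhbb, an activin subunit, fell 68.2-fold, from 17.7 ± 2.16 to 0.242 ± 0.0498 CPM, and Mymx, a muscle fusion peptide gene, 67.0-fold, from 25.8 ± 0.455 to 0.385 ± 0.135 CPM. Nphs1, of the kidney filter, fell by a fitted 68.7-fold, from 11.5 ± 1.14 to 0.125 ± 0.216 CPM. With a day 6 SD above the mean, few counts stand behind this fold.

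Apart from Gm42418, Col4a1 gained the most CPM of all tested genes, and was followed by Sparc, Col4a2, mt-Co1 and Peg3. Ranked among 14157 nuclear protein-coding genes by CPM per kilobase of exon, Sparc moved from rank 587 at day 0 to 22 at day 6, and Col4a1 from 822 to 41. Serpinh1, the collagen chaperone, moved from rank 1103 to 48, and Gpx3, a secreted peroxidase, from 1006 to 24. Igf2 moved from rank 12074 to 217. Pou5f1 went from rank 60 to 303 and Sox2 from 127 to 1459. The largest losses in CPM were those of Hsp90ab1, Hsp90aa1, Ybx1, Ncl and Pkm. The chaperone gene Hsp90ab1 stood at 10133, 9745 and 10385 CPM at day 0 and 5681, 6078 and 5654 CPM at day 6, a fall of 1.74-fold (log2 -0.797 ± 0.05, edgeR quasi-likelihood adjusted p = 3.31e-18). Ybx1, a cold shock protein gene, fell 2.38-fold, from 7152 ± 159 to 3012 ± 92.4 CPM, and the elongation factor gene Eef2 1.48-fold, from 6774 ± 141 to 4569 ± 123 CPM. When tested genes were divided into 5 equal classes by mean CPM, 51.7% of the highest class fell and 35.9% rose, while in the middle class 33.9% fell and 44.5% rose. Actb went from 461 ± 31.6 to 547 ± 16.8 CPM, a log2 difference of 0.25 ± 0.06 (edgeR quasi-likelihood adjusted p = 0.000852).

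The direction of change differed in share among chromosomes and kinds of gene. Of 637 tested genes on the X chromosome, 342 rose (53.7%) and 156 fell (24.5%), with a median log2 of 0.45. On the 19 autosomes the share that rose ran from 33.0 to 46.7%, the share that fell from 31.9 to 45.3%, and the medians from -0.12 to 0.17. Families of germline and reproductive genes form part of the X count. All 11 tested Xlr genes rose, as did 16 of 18 Rhox genes and 10 of 13 Mage genes, and members of these families are close copies whose reads may be divided among them. Without these and the Nxf, Bex and Tceal families, named after the values were seen, 297 of 581 X genes rose (51.1%) and 149 fell (25.6%), with a median log2 of 0.36. Xist had too few counts to be tested, and its antisense partner Tsix rose by 0.49 on the log2 scale. On the Y chromosome 7 of 11 tested genes rose, 1 fell and 3 did not pass. Among 911 processed pseudogenes, 46.8% fell and 12.8% rose (list median -0.45 on the log2 scale), against 37.9% and 41.5% of 14179 protein-coding genes. Counts on processed pseudogenes can include reads of the parent gene, and their share was not tested. Of 720 long noncoding RNA genes, 38.5% rose and 28.5% fell. When tested genes were divided into 5 equal classes by exon length, 27.6% of the shortest class rose and 39.1% fell. In the longest class 47.9% rose and 33.9% fell. The shares by chromosome and by kind of gene were not adjusted for exon length.

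**Figure D5:**
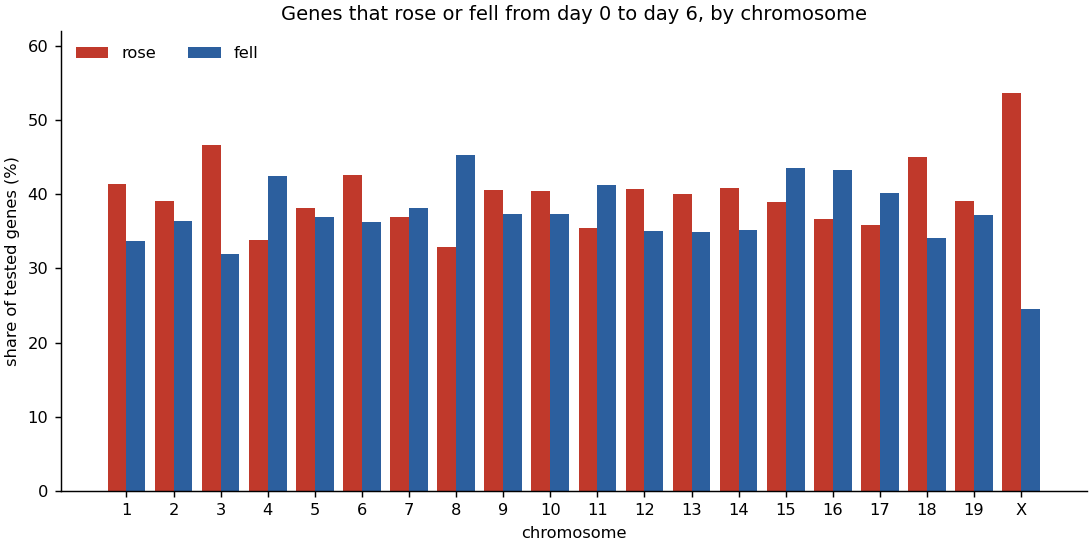
Share of tested genes that rose (red) or fell (blue) from day 0 to day 6, in percent, for each autosome and the X chromosome. The X chromosome has the highest share of rising genes, 53.7%, and the lowest share of falling genes, 24.5%.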

How the data were processed

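Polyadenylated RNA of mouse ES cells was sequenced in 12 libraries, 3 per day, of which the 3 of day 0 and the 3 of day 6 are compared here. The values the authors deposited are raw counts per gene with no normalization. Per the labels, the library kit was SMARTER mRNA-Seq. The submitters' processing notes name HISAT2 2.1.0, featureCounts 2.0.1, FastQC 0.11.7, DESeq2 and the build mm10, without their roles. The annotation release, strandedness and handling of reads with several positions are not given in the sources used here. Gene coordinates (GRCm38) and exon lengths come from GENCODE M21, which held 55154 of the 55335 gene IDs.

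In R 4.3.3, edgeR 4.0.16 kept genes with enough counts by day (filterByExpr), scaled libraries by TMM and fitted 1 coefficient per day to all 12 libraries with the robust quasi-likelihood method. Day 6 was tested against day 0 two-sided, with Benjamini-Hochberg adjustment over the 16468 tested genes and a threshold of 0.05. The SE of a fold change was computed from its F statistic. A fold against a day without counts is a bound set by 3 counts, and with 1 to 3 counts the ratio has an exact 95% counting interval. Scaling by library size alone would shift all log2 fold changes by 0.104. Chi-square per degree of freedom between replicates was 1.51 to 2.69, above the 1 of pure counting error, so no library was counted as a duplicate.

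The comparison and the 64 gene lists were chosen with earlier results of these data known. Genes were named by a rule: with at least 5 CPM and no overlap of libraries, the 15 largest rises and falls by fold, the 10 largest in CPM, the 6 smallest p, in each list the up to 5 members lowest in p, and 35 genes whatever their values. Symbols of the Gm and Rik kind were passed over in the first 2. Other list members named, among them the exceptions of a list, were chosen after their values were seen. Some genes the rule names are not reported here. Lists have no test of their own. On simulated counts with 50 genes changed at each size, the test called 52% of genes changed 1.25-fold, 72% at 1.5-fold, 76% at 2-fold and 98% at 4-fold, and 11 of 15786 unchanged genes. In that simulation all other genes were flat over the days, and the changed genes were drawn above a floor of expected day 0 counts. In the data 76.9% of genes changed, which makes the adjusted threshold less strict. The simulated rates therefore do not carry over to this comparison. Alternatives were other scalings and filters, DESeq2 1.42.0, limma-voom (limma 3.58.1), the 6 libraries alone, a replicate block, thinned counts, a stricter threshold, counts without Gm42418 and the mitochondrially encoded genes, and each library left out in turn. Python 3.11.15 with matplotlib 3.10.9 drew the figures.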

Additional observations from a re-analysis of the deposited data

How the results depend on the processing

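The count of changed genes kept within 1.5 times its value, with none of the calls turned around, under each of the alternatives run. The number of genes that rose and fell was 6490 and 6173 as reported, 6449 and 6203 with median-ratio factors, 6202 and 6419 with upper-quartile factors, and 7201 and 5446 with library size alone. It was 6075 and 5846 by DESeq2, 6443 and 6176 by limma-voom, 6325 and 6075 in a fit to the 6 libraries, and 5889 and 5615 at an adjusted p under 0.01. Leaving out a library of day 0 or day 6 gave 6283 to 6437 rising and 6005 to 6123 falling genes. With a replicate block the numbers were 6480 and 6150. Replicates with the same number did not deviate together (correlation -0.173 to -0.01), so the numbers were not taken as pairs. Of the 336 genes given by the naming rule, 1 lost its call under an alternative in which it was tested. This was Usp9y, at 0.163 CPM at day 0, without the third replicate of day 0 (edgeR quasi-likelihood adjusted p = 0.0561). Other genes named in the text were not followed singly. Among them is Gata1, the only GATA factor that fell, whose call was lost with thinned counts. Counts of list members moved by over 1.5 times in these further cases. With upper-quartile factors 1 germline, 1 HoxD and 2 imprinted genes fell, and with library size alone 2 meiosis genes fell and 3 p53 targets rose. Without a filter 6 mesoderm, 5 neural crest, 3 IGF and 2 gut genes and 1 HoxD gene fell. In the fit to the 6 libraries 1 HoxD gene fell, and with thinned counts 0 GATA factors and 1 HoxC gene fell. With upper-quartile factors, without a filter, by DESeq2 and at an adjusted p under 0.01, 0 p53 targets rose. The mitochondrially encoded genes were left out by construction in 1 alternative. Depth limits genes under about 1 CPM, where few counts stand behind a value, as for Fgf5 and Cdx2 at day 0.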

Other observations

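Several genes outside the lists had a large change, and in Gpx3, Mdk and Serpinh1 it came with a high level. Gpx3, a secreted glutathione peroxidase, stood at 91.5, 98.98 and 92.3 CPM at day 0 and 1817, 1519 and 1781 CPM at day 6, a rise of 18.1-fold (log2 4.18 ± 0.08, edgeR quasi-likelihood adjusted p = 2.60e-18). Mdk, the growth factor midkine, rose 4.89-fold, from 298 ± 4.31 to 1455 ± 19.3 CPM. Serpinh1, a chaperone of collagen in the endoplasmic reticulum, rose 13.6-fold, from 114 ± 4.25 to 1550.5 ± 71.9 CPM. Dmbt1, a scavenger receptor gene of epithelia, was without a count at day 0 and reached 7.09 ± 0.523 CPM, which is at least 58.1-fold higher. Lrrn2, a leucine-rich repeat protein gene, was at least 48.3-fold higher. On the falling side, Platr10, a noncoding RNA of pluripotent cells, went from 20.8 ± 3.39 to 0.206 ± 0.0957 CPM. Nags, which starts the urea cycle, had 199 counts at day 0 and 1 at day 6, and the protease gene Capn11 160 and 1. Pou2f3, of tuft cells and skin, went from 10.2 ± 1.245 to 0.157 ± 0.0558 CPM, and Apod, an atypical apolipoprotein, from 8.68 ± 0.666 to 0.132 ± 0.0743 CPM. These genes were picked on condition that the libraries of the days do not overlap, so the lack of overlap is not a result. Over all tested genes, the day 6 libraries lay wholly above in 40.2% and wholly below in 38.1%.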
